A study of Caenorhabditis elegans with 6 samples.

Results

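The *ugt* genes of *C. elegans* encode the UDP-glucuronosyltransferase family, and all rows of the gene count table whose symbol begins with *ugt-* were taken as its members. This gave 67 genes of 46739 in the table, each annotated as protein-coding. RNA-Seq had been performed on 6 libraries of whole wild-type Bristol N2 worms, many pooled worms per library, kept at 20 °C and frozen 5 days after young adulthood. The 3 control libraries came from worms fed *E. coli* HT115 carrying the empty RNAi vector L4440. The other 3 came from worms fed, for the same 5 days, on bacteria with the vector aimed at *Y37A1B.5* (*semo-1* in the annotation), an ortholog of human selenium-binding protein 1. The count of *Y37A1B.5* itself was higher in the latter libraries (4833, 3519 and 4189 counts) than in the control (1126, 1295 and 792 counts). The log2 fold change was 1.85 (edgeR adjusted p = 0.000834), so these libraries are named here by their label. By contrast, the paper's qRT-PCR found *Y37A1B.5* mRNA well below control after 5 days of RNAi, and its GFP fusion signal fell as well. The reason for this difference was not tested.

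UDP-glucuronosyltransferases are membrane enzymes of the endoplasmic reticulum that move a sugar from a UDP-sugar onto small fat-soluble molecules, which makes these easier to excrete. In mammals the sugar is mostly glucuronic acid, made from UDP-glucose, and in nematodes glucose is often used in its place. The reaction belongs to the second phase of detoxification, after oxidation by cytochromes P450 and before export by ABC transporters. The intestine is a main site of detoxification in the worm. No role of a single *ugt* gene is assigned below.

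Libraries held between 34403223 and 46733527 counts on genes. Of these, the *ugt* family took 16271 to 23707 counts, or 0.0468% to 0.0601% of a library. After a filter on low counts, 61 of the 67 members (91.0%) were among the 15003 genes tested with edgeR's quasi-likelihood test. Levels are given in CPM, counts per 1000000 counts of a library scaled by its TMM factor, or in CPM per kb of exon where genes are compared with each other. Fold changes are given on the log2 scale with their standard error (SE). A gene is called when its p, adjusted over all 15003 genes by Benjamini-Hochberg, lies under 0.05. Because whole worms were sequenced, fewer cells that express a gene and less RNA per cell cannot be told apart.

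Of the 61 tested members, 10 (16.4%) were called higher and 1 (1.64%) was called lower in the libraries labelled Y37A1B.5 RNAi. Among all genes tested, 4.81% were called higher and 8.85% lower, 13.7% in all. This split depends on the scaling, since 35.2% of all called genes were higher with TMM factors, 41.1% with RLE and 23.8% with upper-quartile factors. With DESeq2, which also differs in its test and filter, it was 48.1%. The members called higher were *ugt-66*, *ugt-14*, *ugt-25*, *ugt-41*, *ugt-53*, *ugt-63*, *ugt-22*, *ugt-12*, *ugt-44* and *ugt-62*, with fitted log2 fold changes from 0.29 to 1.59, and the lower one was *ugt-4* (−0.48). The other 50 tested members did not pass the threshold. In none of the 11 called genes did the libraries of both groups overlap, a separation also found for 40.5% of all genes tested (two-sided exact permutation test for each gene, p = 0.1, and no smaller p is possible with 3 libraries against 3). Without control replicate 1 or without control replicate 2, 6 members remained called higher and 0 were called lower, and those 6 were *ugt-66*, *ugt-25*, *ugt-41*, *ugt-63*, *ugt-22* and *ugt-44*. Over all genes, 862 and 727 were called without these libraries, of 2050 with them. Labelled replicate 3 was the highest labelled library for 8 of the 10 genes and for 28 of the 61 tested members. Control replicate 3 was the highest control library for 7 of the 10 genes. Without labelled replicate 3, 9 members were called higher and 1 lower.

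**Figure D1:**
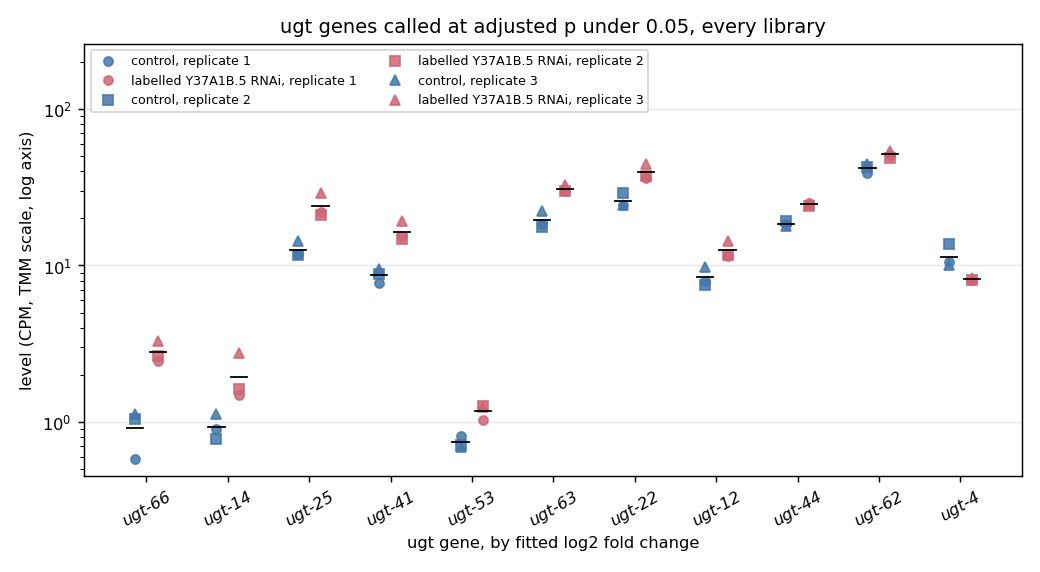
Level in CPM (log axis) of the 11 called *ugt* genes in each of the 6 libraries. Blue marks are control libraries, red marks are libraries labelled Y37A1B.5 RNAi, the shape gives the replicate number and the black bar the mean of 3. Red marks lie above all blue marks in 10 genes and under them in *ugt-4*, and the highest red mark is replicate 3 in 8 of the 10.

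*ugt-66* (WBGene00016013) lies on the minus strand of chromosome III from 6192116 to 6194580 in WBcel235 and showed the largest fitted increase of the family. Its counts were 20, 38 and 41 in the control and 83, 117 and 132 in the labelled libraries, each in the order of replicates 1 to 3. The groups did not overlap, and control replicate 1 was the lowest library. From a control level of 0.921 ± 0.295 CPM it rose to 2.79 ± 0.433 CPM (SD, n = 3 each), or by 1.59 on the log2 scale (SE 0.22, edgeR adjusted p = 0.0021). The gene is expressed at a low level, with rank 39 of 67 for the mean level per kb.

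*ugt-25* (WBGene00015692) lies on chromosome I from 4731606 to 4735276 on the plus strand. Its levels were 11.9, 11.7 and 14.3 CPM in control replicates 1 to 3 and 22.1, 20.9 and 29.0 CPM in the labelled replicates. Replicate 3 was the highest library in both groups. The log2 fold change was 0.93 (SE 0.13, edgeR adjusted p = 0.00231).

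*ugt-41* (WBGene00017336) lies on the minus strand of chromosome V from 7161068 to 7163595. It gave 7.73, 8.87 and 9.45 CPM in control replicates 1 to 3 and 15.4, 14.8 and 19.2 CPM in the labelled ones. Each labelled library lay well above the highest control library. The log2 fold change of 0.92 (SE 0.12, edgeR adjusted p = 0.00162) had the smallest adjusted p of the family.

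*ugt-63* (WBGene00015449, chromosome V, 5108180 to 5110772, minus strand) and *ugt-22* (WBGene00007455, chromosome IV, 13639260 to 13644567, plus strand) were also called higher. Both are among the 5 members with the highest mean level per kb over all 6 libraries. *ugt-63* had 18.5, 17.7 and 22.2 CPM in the control and 30.1, 29.7 and 32.8 CPM in the labelled replicates, 0.66 higher on the log2 scale (SE 0.096, edgeR adjusted p = 0.00243). *ugt-22* had 24.2, 28.9 and 24.2 CPM in the control and 36.2, 37.4 and 44.4 CPM in the labelled replicates, 0.61 higher on the log2 scale (SE 0.10, edgeR adjusted p = 0.00469). In both genes the gap between the groups was wider than the range within the control. Exons of *ugt-22* overlap *srz-29* over 309 bp on the opposite strand, whose reads the stranded counting assigns separately, and several piRNA genes on its own strand.

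*ugt-44* (WBGene00008486, chromosome IV, 10469741 to 10471899, plus strand) had a smaller but very even increase. Its levels were 18.3, 19.2 and 17.7 CPM in control replicates 1 to 3 and 25.2, 23.8 and 24.8 CPM in the labelled replicates. The spread was under 1 CPM in each group (SD of 0.752 and 0.713 CPM, n = 3 each). The log2 fold change was 0.42 (SE 0.075, edgeR adjusted p = 0.00662).

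The remaining 4 higher genes passed the threshold less firmly. *ugt-12* (WBGene00020592, chromosome V, 4887165 to 4889629) had 7.99, 7.49 and 9.75 CPM in the control and 11.5, 11.7 and 14.3 CPM in the labelled replicates (log2 fold change 0.57, SE 0.13, edgeR adjusted p = 0.0184). *ugt-62* (WBGene00010904, chromosome III, 4537281 to 4540623) had 38.8, 42.4 and 44.4 CPM in the control and 50.9, 48.6 and 54.1 CPM in the labelled replicates (0.29, SE 0.076, edgeR adjusted p = 0.033). In both, the groups did not overlap but came within a few CPM of each other. *ugt-14* (WBGene00019233, chromosome V, 4906253 to 4908304) had 31, 28 and 41 counts in the control and 50, 72 and 111 counts in the labelled replicates, or 0.936 ± 0.180 and 1.95 ± 0.701 CPM (SD, n = 3 each). Replicate 3 stood out here, at 2.94 times the control mean in CPM against 1.58 and 1.73 times in replicates 1 and 2 (log2 fold change 1.06, SE 0.27, edgeR adjusted p = 0.0289). *ugt-53* (WBGene00020182, chromosome V, 2849343 to 2852028) had 28, 26 and 25 counts in the control and 35, 56 and 50 in the labelled replicates, or 0.741 ± 0.0669 and 1.18 ± 0.125 CPM (SD, n = 3 each; 0.68, SE 0.19, edgeR adjusted p = 0.0415).

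Without control replicate 1, the edgeR adjusted p was 0.0726 for *ugt-12*, 0.15 for *ugt-62*, 0.0894 for *ugt-14* and 0.0915 for *ugt-53*. Without control replicate 2 it was 0.0812, 0.107, 0.116 and 0.137 in the same order. *ugt-62* also missed the threshold without labelled replicate 1 (0.0617). *ugt-53* did so without control replicate 3 (0.0898), without labelled replicate 1 (0.052), 2 (0.107) or 3 (0.0722), with upper-quartile factors (0.0565) and with DESeq2 (0.106).

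*ugt-4* (WBGene00013905), the member called lower, lies on the minus strand of chromosome V from 12793014 to 12795336. It had 10.6, 13.6 and 10.002 CPM in control replicates 1 to 3 and 8.07, 8.12 and 8.37 CPM in the labelled replicates. The labelled libraries were nearly equal, all under the lowest control library, and control replicate 2 was the highest. The log2 fold change was −0.48 (SE 0.12, edgeR adjusted p = 0.0304), and the adjusted p was 0.0597 without control replicate 1, 0.109 without control replicate 2, 0.0768 when labelled replicate 1 was left out and 0.0719 when labelled replicate 2 was.

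At an unadjusted p under 0.05, 13 members were higher and 4 lower, 17 of 61 (27.9%), where 14.3% of all genes tested were higher and 18.8% lower (33.1% in all). Libraries of one group lay clear of the other for 18 members (29.5%), of which 12 were higher and 6 lower in the labelled libraries. Among all genes tested this was so for 40.5%, of which 18.4% of the genes tested were higher and 22.1% lower. Counted in both directions, the family's share was thus smaller than that of all genes in both of these looser counts. Its share higher was 21.3% by the unadjusted p and 19.7% by overlap, and its share lower 6.56% and 9.84%. The fitted log2 fold change was above 0 for 36 members (59.0%) and for 45.9% of all genes tested. Its median was 0.069 over the 61 members and −0.028 over all genes, and the middle 50% of members lay between −0.13 and 0.29, against −0.27 and 0.14 of all genes. The family median was 0.0052 without labelled replicate 3, 0.014 without control replicate 3, 0.037 without control replicate 1, 0.104 without control replicate 2 and 0.108 without labelled replicate 2.

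**Figure D2:**
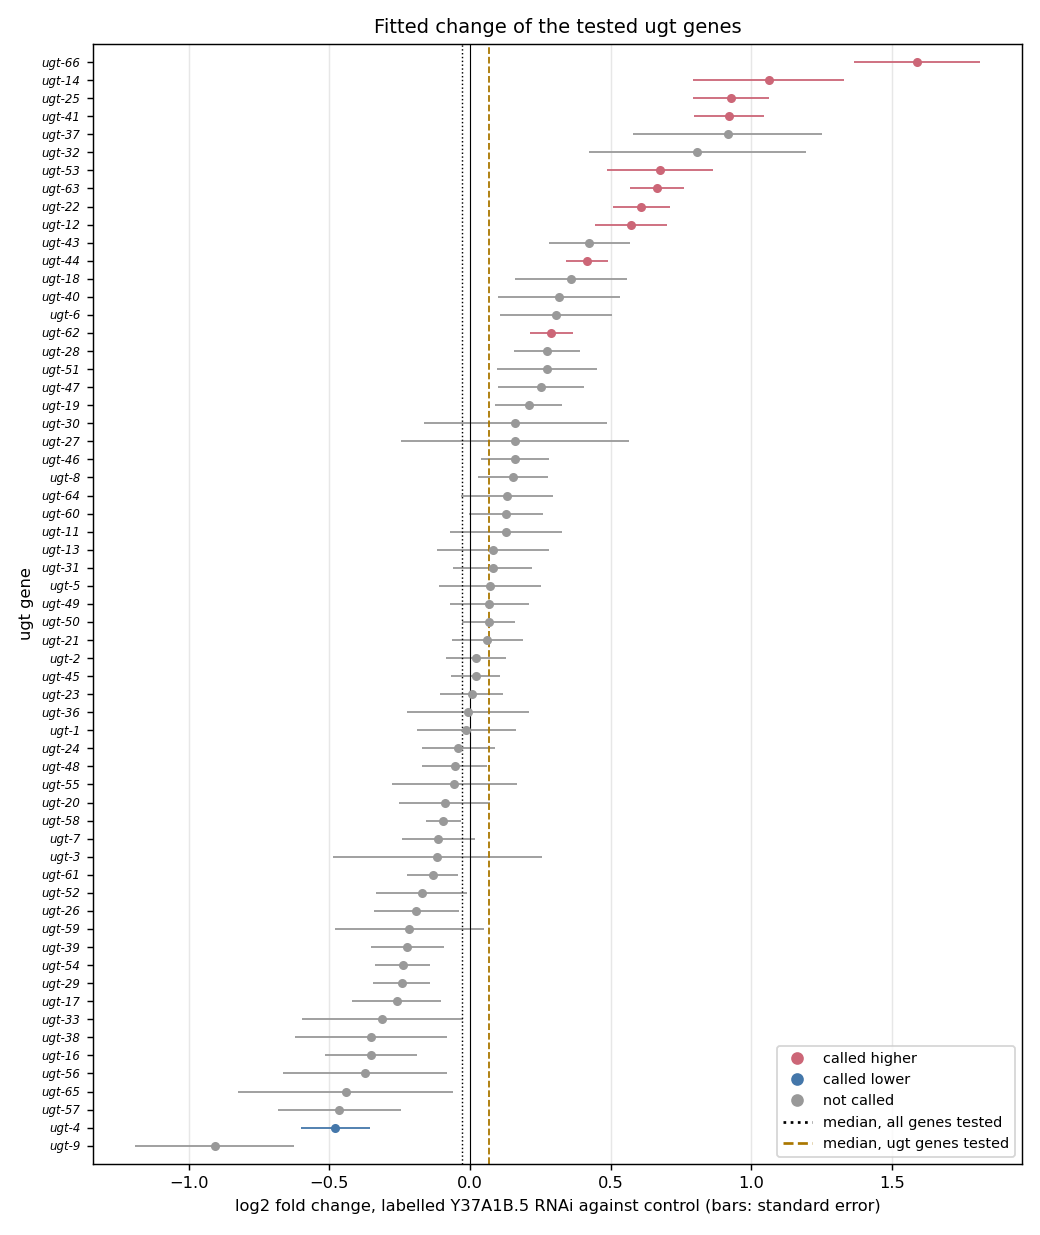
Fitted log2 fold change (x axis) of the 61 tested *ugt* genes, labelled Y37A1B.5 RNAi against control, in order of size, with bars for the standard error. Red genes are called higher, the blue gene is called lower and gray genes are not called. The dashed line marks the family median of 0.069 and the dotted line the median of −0.028 over all genes tested. Most gray genes lie between −0.5 and 0.5.

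*ugt-9* (WBGene00020587, chromosome V, 4896048 to 4897969) had the largest fitted decrease without reaching the threshold. Its levels were 1.14, 2.16 and 1.24 CPM in the control (39, 78 and 45 counts) and 0.946, 0.607 and 0.894 CPM in the labelled replicates (32, 27 and 36 counts). Control replicate 2 was far above the other libraries, and the groups did not overlap. The log2 fold change was −0.91 (SE 0.28, edgeR adjusted p = 0.0582). It was called with DESeq2 (adjusted p = 0.0487), without the filter on low counts (edgeR adjusted p = 0.00141) and with the length trend removed (0.0433). Without control replicate 2 it was at −0.56 (edgeR adjusted p = 0.218), and without labelled replicate 2 its adjusted p was 0.147.

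*ugt-37* had a fitted log2 fold change of 0.92, close to that of *ugt-41*, but from 14, 10 and 8 counts in the control and 25, 18 and 24 counts in the labelled replicates. With a standard error of 0.34, it was not called (edgeR adjusted p = 0.0906), except without the filter on low counts (0.0476). *ugt-43* had 53, 61 and 68 counts in the control and 82, 104 and 85 in the labelled replicates, 0.42 higher on the log2 scale (SE 0.15, edgeR adjusted p = 0.0758), and was called only with the length trend removed (0.0322). *ugt-28* (0.27), *ugt-54* (−0.24) and *ugt-29* (−0.24) also had an unadjusted p under 0.05, with edgeR adjusted p of 0.135, 0.121 and 0.128. *ugt-57*, *ugt-65* and *ugt-56*, at −0.47, −0.44 and −0.37, complete the 5 largest fitted decreases, and in each of them the groups overlapped. With 1 library left out, *ugt-65* ranged from −0.078 (without labelled replicate 2) to −1.04 (without labelled replicate 3, edgeR adjusted p = 0.0579), and *ugt-56* was at −0.14 without labelled replicate 2. Over the 50 members not called, the standard error ranged from 0.061 to 0.405 (median 0.163).

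By level, the family spanned more than 3 orders of magnitude. *ugt-58* on chromosome II was the highest at 38.9 CPM per kb over the 6 libraries and *ugt-35* on chromosome V the lowest at 0.0134. The median over all 67 members, with the 6 outside the test, was 2.06 CPM per kb. Over all genes tested, which leaves out such low genes, it was 7.97. The 8 highest members, *ugt-58*, *ugt-62*, *ugt-64*, *ugt-63*, *ugt-22*, *ugt-17*, *ugt-44* and *ugt-25*, held 51.2% of all counts of the family. Of these 8, 5 were called higher (*ugt-62*, *ugt-63*, *ugt-22*, *ugt-44* and *ugt-25*). Those called higher, however, also included *ugt-53* at 0.608 CPM per kb. The order uses the mean of all 6 libraries, so a member's own change enters it. In the control alone, *ugt-25* (7.59 CPM per kb) lay under *ugt-23* (9.38), which is not among the 8 and was not called. Across the 61 tested members, the log2 fold change and the log2 level per kb correlated by 0.062 (Pearson) and 0.092 (Spearman). This is a description over genes that share the same 6 libraries. The level is again the mean of both groups, so it contains part of the change.

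*ugt-58* (WBGene00009450, minus strand of chromosome II, 9584384 to 9586784) had 70.6, 69.9 and 66.9 CPM in the control and 65.2, 64.1 and 64.9 CPM in the labelled replicates. The groups did not overlap, yet the difference of −0.095 on the log2 scale was not called (SE 0.061, edgeR adjusted p = 0.302). Per kb, *ugt-58* (38.9 to 41.1 CPM per kb over the control libraries) stood above *ugt-62* (22.9 to 26.3), and *ugt-62* above *ugt-64* (14.03 to 20.3), without overlap. From *ugt-64* over *ugt-63* (11.5 to 14.4), *ugt-22* (10.9 to 13) and *ugt-17* (10.4 to 17.2) to *ugt-44* (9.75 to 10.6), each neighbour in the order overlapped the next in the control. *ugt-64* and *ugt-17* had the widest relative spread of these 8 in the control (CV of 18.2% and 25.1%). *ugt-64* had 31.5, 36.1 and 24.9 CPM in the control and 35.4, 40.0 and 25.9 CPM in the labelled replicates, with replicate 3 lowest in both groups (log2 fold change 0.13, SE 0.16, edgeR adjusted p = 0.604). *ugt-17* had 22.5, 29.6 and 18.0 CPM in the control and 22.0, 18.0 and 18.5 CPM in the labelled replicates (−0.26, SE 0.16, edgeR adjusted p = 0.274).

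**Figure D3:**
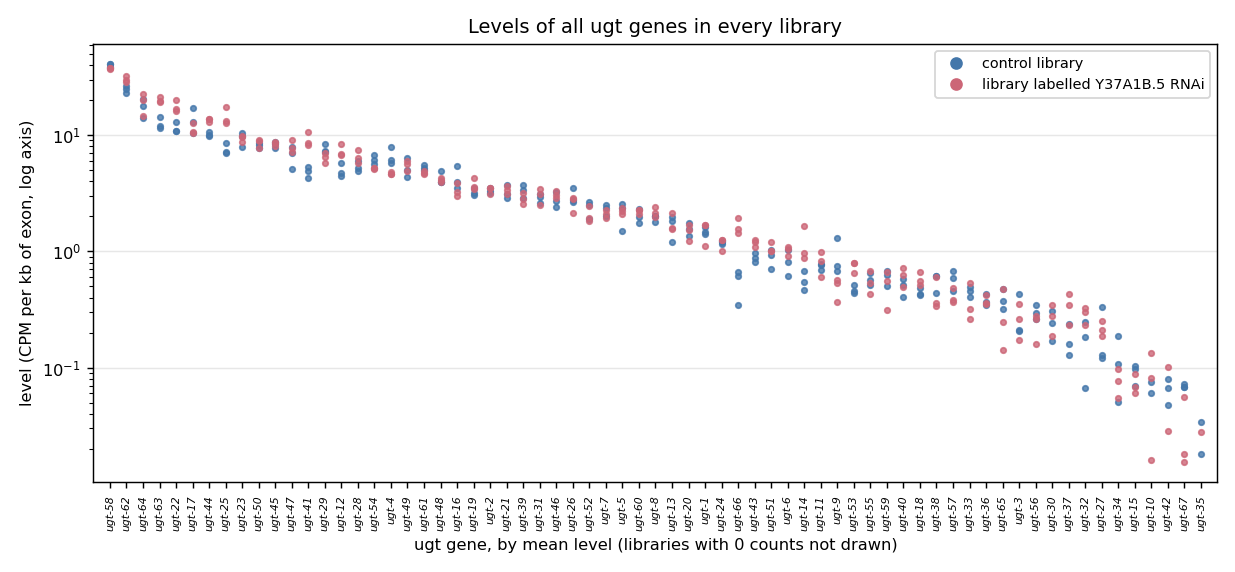
Level in CPM per kb of exon (log axis) of all 67 *ugt* genes in each library, in order of the mean level. Blue points are control libraries and red points are libraries labelled Y37A1B.5 RNAi, and libraries with 0 counts are not drawn. Levels fall from 38.9 CPM per kb for *ugt-58* to 0.0134 for *ugt-35*, and blue and red points are mixed for most genes.

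The 6 members outside the test were *ugt-42*, *ugt-10*, *ugt-67*, *ugt-35*, *ugt-34* and *ugt-15*, all on chromosome V. They had between 0 and 11 counts in a library, and 3 members of the family had 0 counts in at least 1 library. For *ugt-67* (4, 4 and 4 counts in the control, 1, 4 and 1 in the labelled replicates) the groups did not overlap in CPM. Without the filter all 67 members were tested, and none of these 6 was called by edgeR.

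The summed level of the 67 members was 474.6, 524.3 and 466.6 CPM in control replicates 1 to 3 and 544.2, 533.0 and 563.6 CPM in the labelled replicates, which is 12% more on average (488.5 ± 31.3 against 546.9 ± 15.5 CPM, SD, n = 3 each). The 10 genes called higher made up 28.2% of this sum in the control and 37.5% in the labelled libraries. The sum of the other 57 was 350.6 ± 32.4 and 342.0 ± 5.27 CPM (SD, n = 3 each). These sums describe genes picked by their change and carry no test. Markers of the intestine were looked up beside these sums. The 7 of 8 that were found, *elt-2*, *ges-1*, *elt-7*, *ifb-2*, *act-5*, *asp-1* and *vha-6*, summed to 359.1 to 453.6 CPM in the control and 420.3 to 528.4 CPM in the labelled libraries, ranges that overlap. None of the 7 was called by edgeR, and none was at 0 CPM. Their median log2 fold change was 0.10. At an unadjusted p under 0.05, 2 were higher and 0 lower (14.3% and 18.8% of all genes tested). The part of these markers in the *ugt* values was not tested.

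Other tissues were present as well, and their marker lists gave few calls. Among all genes tested, 4.81% were called higher and 8.85% lower. At an unadjusted p under 0.05, these shares were 14.3% and 18.8%. Of 6 epidermis markers, 1 was called higher (*col-19*, a cuticle collagen of the adult, log2 fold change 0.75, edgeR adjusted p = 0.0217, and 0.059 without labelled replicate 2) and 0 lower. The other 5 had values from −0.53 to −0.19 and were not called, with 1 of them lower at an unadjusted p under 0.05, and the median of the 6 was −0.33. The 6 summed to 174.4 to 186.2 CPM in the control and 142.1 to 183.9 CPM in the labelled libraries. Of 6 early embryo markers, 3 were tested and 1 was called lower (*tbx-38*, a T-box factor, −0.41, edgeR adjusted p = 0.0429, and over 0.05 without any 1 of control replicates 1 and 2 and labelled replicates 1 and 3). At an unadjusted p under 0.05, 2 of these 3 were lower, and their median was −0.32. For body wall muscle (4 tested), neurons (6), germline (4) and sperm (4), 0 markers were called. At an unadjusted p under 0.05 these 4 lists held 0 higher and, in this order, 1, 2, 0 and 0 lower.

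The members are spread unevenly over the genome, with 42 on chromosome V, 12 on IV, 5 on I, 4 on X, 3 on III and 1 on II. Calls were made on chromosomes I (1 higher), III (2 higher), IV (2 higher) and V (5 higher, 1 lower). Members less than 20000 bp apart were grouped into runs, which gave 10 runs with 37 of the 67 members. Exon lengths, all transcripts merged, ranged from 1542 to 2909 bp with a median of 1707 bp, and genes had 4 to 11 separate stretches of exon. The log2 fold change did not follow this narrow range of lengths over the 61 tested members (Pearson −0.078, Spearman −0.069).

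Most runs held members of both directions. In the run of 8 genes on chromosome V from 4887165 to 4911399, *ugt-12* and *ugt-14* were called higher, while *ugt-9*, between them, had −0.91 on the log2 scale. The others tested there, *ugt-11*, *ugt-8* and *ugt-13*, lay between 0.081 and 0.15 and were not called. In the run of 6 genes from 7139475 to 7169281, *ugt-41* was called higher, whereas its neighbours *ugt-39* and *ugt-36* lay at −0.22 and −0.0068. The others there, *ugt-37*, *ugt-40* and *ugt-38*, lay at 0.92, 0.32 and −0.35 and were not called. In the annotation used here, *ugt-37* and *ugt-40* of this run overlap by 42 bp of exon on the same strand. Reads that overlap both genes would not be counted for either. On chromosome I, the 4 genes *ugt-26*, *ugt-27*, *ugt-28* and *ugt-25* follow each other on the same strand within 14146 bp, with gaps of 82 to 1239 bp. Their log2 fold changes were −0.19, 0.16, 0.27 and 0.93, and their levels ranged from 0.205 to 11.02 CPM per kb. Only in the pair *ugt-43* and *ugt-44*, among the runs that hold a gene called higher, were all tested members at a like value (0.42 each). The run of 7 genes from 12790676 to 12830114 held *ugt-4*, called lower, with its neighbours *ugt-5* and *ugt-6* 48 and 144 bp away at 0.070 and 0.31.

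**Figure D4:**
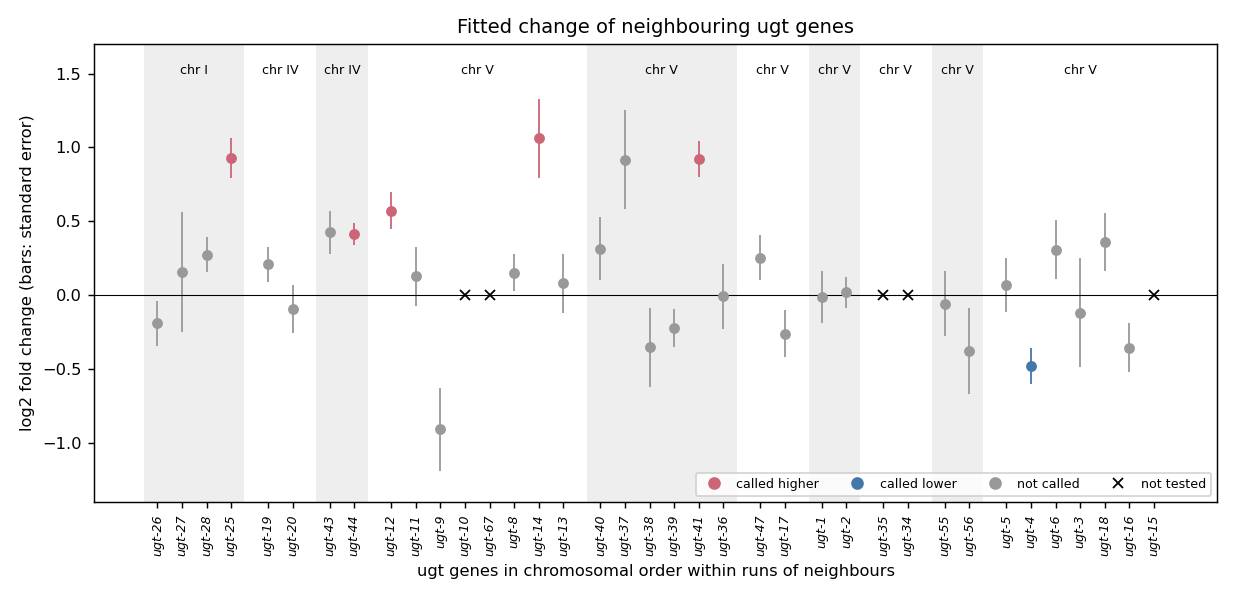
Fitted log2 fold change (y axis, bars for the standard error) of the 37 *ugt* genes that have another member within 20000 bp, in chromosomal order, with each of the 10 runs on its own band. Red genes are called higher, the blue gene is called lower, gray genes are not called and crosses mark genes not tested. Called genes share runs with genes at other values, as *ugt-14* (1.06) and *ugt-9* (−0.91), which are not adjacent. The pair *ugt-43* and *ugt-44* (0.42 each) is an exception.

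Of the genes around the family, 10 of UDP-sugar metabolism and transport were looked up. Not all of them make the sugar donor, and its supply to the family was not tested. All 10 were tested, 2 were called higher and 1 lower (4.81% and 8.85% of all genes tested), with 5 higher and 1 lower at an unadjusted p under 0.05 (14.3% and 18.8% of all genes) and a median log2 fold change of 0.17. *sqv-4*, the UDP-glucose dehydrogenase that makes UDP-glucuronic acid, had 186.7, 175.1 and 198.6 CPM in the control and 226.7, 220.3 and 255.5 CPM in the labelled replicates. The groups did not overlap, and the log2 fold change was 0.33 (SE 0.085, edgeR adjusted p = 0.0318). *sqv-7*, a transporter that carries UDP-glucuronic acid and other UDP-sugars into the Golgi, had 91.3, 83.2 and 95.3 CPM in the control and 107.9, 105.4 and 114.1 CPM in the labelled replicates (0.28, SE 0.073, edgeR adjusted p = 0.0324). *D1005.2* was lower, from 4.92 ± 0.582 to 3.22 ± 0.567 CPM (SD, n = 3), at −0.61 (edgeR adjusted p = 0.0272). Without control replicate 1 or 2, all 3 missed the threshold (edgeR adjusted p of 0.0521 to 0.156), and *sqv-7* and *D1005.2* did so without labelled replicate 1 or 2 as well (0.0556 to 0.0784).

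Of 6 other conjugating enzymes, which add sulfate or a methyl group, 3 were tested and 1 was called higher (4.81% of all genes tested). This was *comt-4*, a gene of the catechol-O-methyltransferase family, with 1.05, 1.35 and 0.909 CPM in the control and 2.39, 3.37 and 3.82 CPM in the labelled replicates (log2 fold change 1.54, SE 0.21, edgeR adjusted p = 0.00197). Its increase was of the size of that of *ugt-66*. The ABC pumps of the P-glycoprotein and MRP families, which export conjugates and drugs from cells, had calls in the other direction. Of 23 tested, 0 were called higher and 5 lower (4.81% and 8.85% of all genes tested), with 1 higher and 12 lower at an unadjusted p under 0.05 (14.3% and 18.8% of all genes) and a median log2 fold change of −0.29. *pgp-4* fell from 27.9 ± 1.01 to 19.1 ± 2.64 CPM (SD, n = 3; −0.55, edgeR adjusted p = 0.00823), and *mrp-2* and *mrp-6* fell by 0.51 and 0.47 on the log2 scale. With the trend on transcript length removed, *pgp-4* was at −0.28 and still called (edgeR adjusted p = 0.0267), whereas *mrp-2* and *mrp-6* were at −0.20 and −0.18 and no longer called (edgeR adjusted p of 0.225 and 0.161), and without control replicate 2 their adjusted p was 0.0514 and 0.0705.

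Among 16 regulators of detoxification genes, 0 were called higher and 2 lower (edgeR, with 0 higher and 3 lower at an unadjusted p under 0.05), where 8.85% of all genes tested were called lower and 18.8% were lower at the unadjusted p. The regulators called lower are thus few, at a share near that of all genes. *zip-2*, a bZIP transcription factor of the response to bacterial toxins, had 141.5, 158.6 and 147.1 CPM in the control and 114.4, 114.7 and 118.3 CPM in the labelled replicates (log2 fold change −0.36, SE 0.070, edgeR adjusted p = 0.00958, and 0.0579 without control replicate 2). *hlh-30*, the ortholog of mammalian TFEB, was lower by a similar amount (−0.35, edgeR adjusted p = 0.0202), but was at −0.13 with the length trend removed (0.221), and its adjusted p was 0.0885, 0.0976 and 0.0535 without control replicate 1, control replicate 2 and labelled replicate 1. *skn-1*, the Nrf2 ortholog and a known activator of conjugating enzymes, lay at −0.15 (SE 0.11, edgeR adjusted p = 0.377), and *ahr-1*, the ortholog of the aryl hydrocarbon receptor, at −0.42 (SE 0.22, edgeR adjusted p = 0.202). Neither was called, and both were picked for mention with their values known. The other regulators not called lay on both sides of 0, and the median of the 16 was −0.12.

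**Figure D5:**
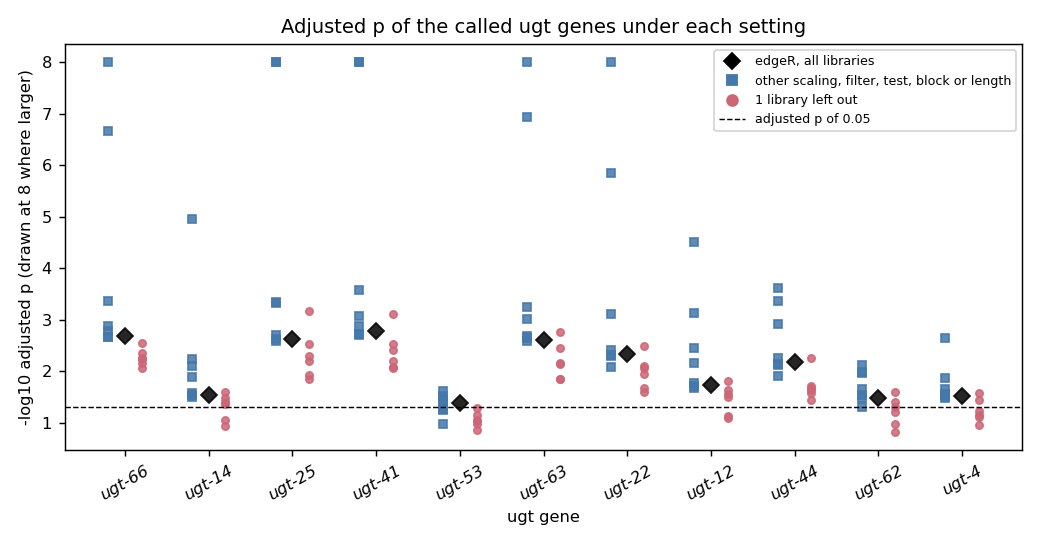
Adjusted p of the 11 called *ugt* genes as its negative log10 (y axis, values over 8 drawn at 8). Black diamonds are edgeR on all libraries, blue squares are other scalings, filters, tests, the block or the length trend, red points each leave out 1 library, and the dashed line marks 0.05. All marks lie above the line for *ugt-66*, *ugt-25*, *ugt-41*, *ugt-63*, *ugt-22* and *ugt-44*, and some lie under it for the other 5.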

How the data were processed

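The deposited values are raw counts per gene, without normalization. For these counts, the authors quality-trimmed the reads, aligned them by TopHat2 2.1.0 to the WBcel235 genome and assigned them to genes by featureCounts 1.5.0 (tool versions as in the submitters' processing notes). Only reads that were unique to 1 gene on its strand were counted, so near-identical *ugt* copies may lose reads. All 6 libraries entered 1 fit in edgeR 4.0.16 (R 4.3.3; TMM factors, filterByExpr at 10 counts per gene and 15 in total, quasi-likelihood test, Benjamini-Hochberg over 15003 genes, threshold 0.05), and the procedure was tested on simulated data. Per the paper's results section, the 3 replicates come from independent experiments. The standard error is the log2 fold change divided by the root of the F statistic. Symbols and positions came from a gene name table and the Ensembl annotation of WBcel235, which holds 46484 of 46739 rows. Exon lengths and overlaps thus rest on a later Ensembl release than the one the paper used for the counts. The symbol *opt-2* found no gene. The members, gene lists and rules were chosen with earlier results of these data known.

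Named were all *ugt* genes with an unadjusted p under 0.05, the 8 highest per kb and the 5 largest fitted changes each way, and up to 3 called genes per list. The lists were written from general knowledge. They cover UDP-sugar metabolism and transport, other conjugating enzymes, ABC pumps, regulators of detoxification and markers of 7 tissues or cell types. Alternatives were RLE and upper-quartile factors, DESeq2 1.42.0, no filter, a stricter filter, a replicate block, a transcript length trend removed (loess, span 0.5) and leaving out each library. All count columns were used. Sequences were not analysed here.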

Additional observations from a re-analysis of the deposited data

How the results depend on the processing

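The number of members called higher, 10 in the full fit, was 9 to 11 under the alternatives of scaling, test, filter, block and length, and 6 to 9 with 1 library left out. The number called lower, 1 in the full fit, was 2 with DESeq2, 2 without the filter and 2 with the length trend removed, and 0 to 1 with 1 library left out. The median log2 fold change of the tested members was 0.14 with the length trend removed, where that of all genes moved from −0.028 to 0.048, and 0.0052 to 0.108 with 1 library left out, lowest without labelled replicate 3. The members' median exceeded that of all genes by 0.0073 without labelled replicate 3 and by 0.096 in the full fit. Over all genes, 2050 were called in the full fit, 3298 without the filter and 727 to 2811 with 1 library left out. Of the called genes, 35.2% were higher with TMM, 23.8% with upper-quartile factors, 48.1% with DESeq2 and 60.3% with the length trend removed. *ugt-64*, which was not called, changed sign without control replicate 3 (−0.0000964) and without labelled replicate 2 (−0.0102), and was 0.299 without labelled replicate 3. With the replicate number as a block, 9 members were called higher and 1 lower, and *ugt-53* was not called (edgeR adjusted p = 0.0539). The labels do not say that a number marks a shared experiment, and the fit without the block was kept. Deviations of same-numbered libraries from the group means correlated by 0.0626 to 0.135, and those of different numbers by −0.146 to 0.0357, although each library correlated best with that of its own number. With the block, 2917 genes were called over all. The 34 genes picked by the naming rule were compared with the alternatives, without others mentioned in passing, such as *skn-1* or *ugt-39*. Of 438 comparisons, 387 kept direction and side of the threshold, 44 lost a call, 5 gained one and 2 changed sign. Counts limit the least counted members, as those of 0 to 11 counts in a library.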
